A study of Mus musculus with 12 samples.

Results

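Voltage-gated sodium and calcium channel genes were followed across mouse spinal cord after injury and cell transplantation. The members were all genes whose mouse symbol is Scn with a number and the letter a or b, or begins with Cacna, Cacnb or Cacng. They numbered 40 of the 46078 genes in the count table, and 45143 of those genes carried a symbol. Of these, 38 are described here, and the other two are not reported. The 38 comprised 9 sodium channel alpha subunits, 3 sodium channel beta subunits, 10 calcium channel alpha1 subunits, 4 alpha2delta subunits, 4 calcium channel beta subunits and 8 gamma subunits. Of the 38, 31 passed the filter on low counts and were tested, and 7 did not. RNA was sequenced from cord tissue in 4 groups of 3 libraries: spinal cord injury (SCI) followed by syngeneic mesenchymal stem cells (MSC), SCI followed by allogeneic MSC, SCI alone, and non-injured cord. MSC are multipotent stromal cells, syngeneic ones come from a genetically matched donor and allogeneic ones from an unmatched donor. All hosts were of the strain written C57BL6/cJ, and the comparisons asked what injury and each kind of transplant did to the cord transcriptome. The sources used here state neither the time after injury, the injury level, the donor strain, the cell dose and route, nor the sex and age of the mice. They also leave unstated whether each library is a separate animal, so p-values measure the spread between libraries, part of which may be technical.

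Voltage-gated sodium channels open when a neuron depolarises and carry the rising phase of the action potential. One pore-forming alpha subunit suffices for a channel, and beta subunits set its gating, its place in the membrane and its adhesion to other molecules. Voltage-gated calcium channels turn the same depolarisation into calcium entry, which releases transmitter at terminals and drives signalling in the cell body. Their alpha1 subunit forms the pore, alpha2delta and beta subunits bring it to the membrane, and most gamma subunits of brain and cord serve instead as partners of AMPA-type glutamate receptors. In spinal cord these genes are expressed mainly by neurons, and sodium channels cluster at the axon initial segment and the nodes of Ranvier.

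Promoter sequence is shown for Scn7a, the member that differed most after injury, for its neighbours Scn9a and Scn1a in the sodium channel cluster of chromosome 2, and for Cacna2d1, the gabapentin receptor subunit. The cluster runs from Scn3a (2:65457118-65567627) and Scn2a (2:65620771-65767447) to Scn1a (2:66270778-66440840), Scn9a (2:66480080-66634962) and Scn7a (2:66673425-66784914), in GENCODE M21 on GRCm38. RefSeq windows (GRCm38.p6) of 250 bases before a start were at hand for 30 of the 38 members, in 41 windows. Bases inside the annotated gene were left off. Capitals mark every match on either strand to 7 searched motifs: GGGCGG (GC box), CAGCTG (E-box core), TATAAA, TTCAGCACC and GGACAGC (parts of the RE1 silencer element), TGACGTCA and TGACTCA.
Scn7a (chr2:66784915-66785160, minus strand): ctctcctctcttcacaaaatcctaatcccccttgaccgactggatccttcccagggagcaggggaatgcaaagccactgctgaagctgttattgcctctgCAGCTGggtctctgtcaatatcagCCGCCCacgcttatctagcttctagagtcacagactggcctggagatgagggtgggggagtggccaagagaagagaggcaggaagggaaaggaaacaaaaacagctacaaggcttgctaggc
Scn9a (chr2:66634963-66635212, minus strand): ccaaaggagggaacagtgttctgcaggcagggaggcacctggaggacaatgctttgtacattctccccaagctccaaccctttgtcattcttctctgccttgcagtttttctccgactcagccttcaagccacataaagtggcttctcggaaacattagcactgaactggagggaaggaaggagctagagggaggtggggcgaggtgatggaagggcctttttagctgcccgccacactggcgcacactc
Scn1a (chr2:66440841-66441087, minus strand): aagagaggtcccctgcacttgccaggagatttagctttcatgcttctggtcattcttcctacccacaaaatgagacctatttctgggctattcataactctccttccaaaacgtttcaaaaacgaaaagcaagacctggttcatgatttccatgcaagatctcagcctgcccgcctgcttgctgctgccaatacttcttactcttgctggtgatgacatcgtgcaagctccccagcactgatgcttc
Cacna2d1 (chr5:15934441-15934690, plus strand): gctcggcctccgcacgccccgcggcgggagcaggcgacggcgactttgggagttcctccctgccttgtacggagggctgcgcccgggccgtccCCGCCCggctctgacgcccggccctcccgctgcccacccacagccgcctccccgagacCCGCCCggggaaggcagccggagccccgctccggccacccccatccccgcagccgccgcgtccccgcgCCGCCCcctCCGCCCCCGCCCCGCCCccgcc
The GC box was found in 36.6% of member windows and in 32.7% of all 32817 windows, and the E-box core in 26.8% of member windows and 13% of all. TATAAA was found in 4.88% and 12.4%, GGACAGC in 2.44% and 5.28%, TGACTCA in 2.44% and 4.46%, while TTCAGCACC and TGACGTCA were found in no member window and in 0.302% and 1.55% of all. The Cacna2d1 window held 36 CpG dinucleotides, and those of Scn7a, Scn9a and Scn1a held 3, 5 and 4, beside a median of 8 over member windows and 6 over all. These matches are descriptions of letters and name no bound factor.

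Levels are CPM, counts scaled to a common library size, computed from the deposited counts with totals scaled by the trimmed mean of M values (TMM). Library totals were 8705942 to 26151928 counts, and 3 counts corresponded to 0.115 to 0.345 CPM. A gene is called where the adjusted p of edgeR's quasi-likelihood test lies below 0.05. The standard error (SE) of a log2 fold change is its absolute value divided by the square root of that test's F statistic. Libraries are numbered within a group in the order of the records, and the numbers pair nothing across groups. All 12 were run in 1 sequencing lane per their labels. The tissue label was borne out by the markers: summed levels of 12 neuron markers were 9009 to 17086 CPM and of 6 oligodendrocyte markers 22180 to 77244 CPM in the 12 libraries. Markers of 2 tissues next to the cord were low in every library, with 2.63 to 4.63 CPM in sum for 6 genes of dorsal root ganglion neurons and 2.86 to 12.3 CPM for 9 genes of skeletal muscle. Schwann cell markers were higher, with 149.6 to 1836 CPM in sum for 4 genes. Within non-injured cord alone they spread from 149.6 to 1690.4 CPM. In bulk tissue a smaller number of cells of a type and less RNA per cell cannot be told apart. How the counting treated strand is unstated, so values are uncertain for 10 members that share exonic bases with an opposite-strand gene (Cacna1a, Cacna1d, Cacna1h, Cacna1s, Cacna2d2, Cacnb1, Cacnb2, Cacnb4, Cacng2 and Scn9a), and for Cacng8, which shares them with a gene of its own strand.

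Per length of exon, accessory subunits had the most RNA of the genes described. Scn4b, a beta subunit linked to resurgent sodium current, stood first in every group, with 89.6 ± 15.4 CPM per kb in the syngeneic group, 63.7 ± 16.9 in the allogeneic group, 64.6 ± 11.8 in SCI and 93.8 ± 23.6 in non-injured cord (SD, n = 3). Cacng7, a gamma subunit that binds AMPA receptors, followed, and its libraries overlapped those of Scn4b in the allogeneic and SCI groups but not in the other two. Scn1a came next and was the leading pore-forming subunit, with 31.9 ± 11.6, 21.7 ± 10.9, 24.4 ± 0.951 and 27.1 ± 6.44 CPM per kb in the syngeneic, allogeneic, SCI and non-injured groups. The next 4 places were held in every group by Scn8a, Scn2b, Cacng2 and Cacnb4, in changing order, and the libraries of neighbours among them overlapped. Of the tested genes, Scn9a and Cacna2d4 were among the 3 lowest in every group, at 0.342 ± 0.179 to 0.55 ± 0.124 and 0.37 ± 0.149 to 0.511 ± 0.131 CPM per kb over the 4 groups.

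Before any comparison, the members were seen to vary together between libraries of the same group. In non-injured library 3, 30 of 31 members were at the lowest level of their group. In syngeneic library 1, 29 members were at the highest level of their group, as were 28 in allogeneic library 1, and in syngeneic library 2 27 were at the lowest. The same counts over all genes tested are not given, so these are not read as particular to the members. Summed over the 31 genes, levels were 3256, 2075 and 2262 CPM in the syngeneic group, 2684, 1523 and 1537 CPM in the allogeneic group, 2151, 2132 and 2121 CPM in SCI, and 2821, 2722 and 1699 CPM in non-injured cord. The SCI libraries thus lay close together, and 1 library of each other group stood well apart from its fellows. The ratio of the highest to the lowest library of a group had a median over members of 1.78 in the syngeneic group, 1.9 in the allogeneic group, 1.14 in SCI and 1.96 in non-injured cord. Over all 16527 genes tested, the same medians were 1.33, 1.37, 1.17 and 1.34. The median SE of the members' fold changes between SCI and non-injured cord was accordingly 0.299, against 0.183 over all genes tested.

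**Figure D1:**
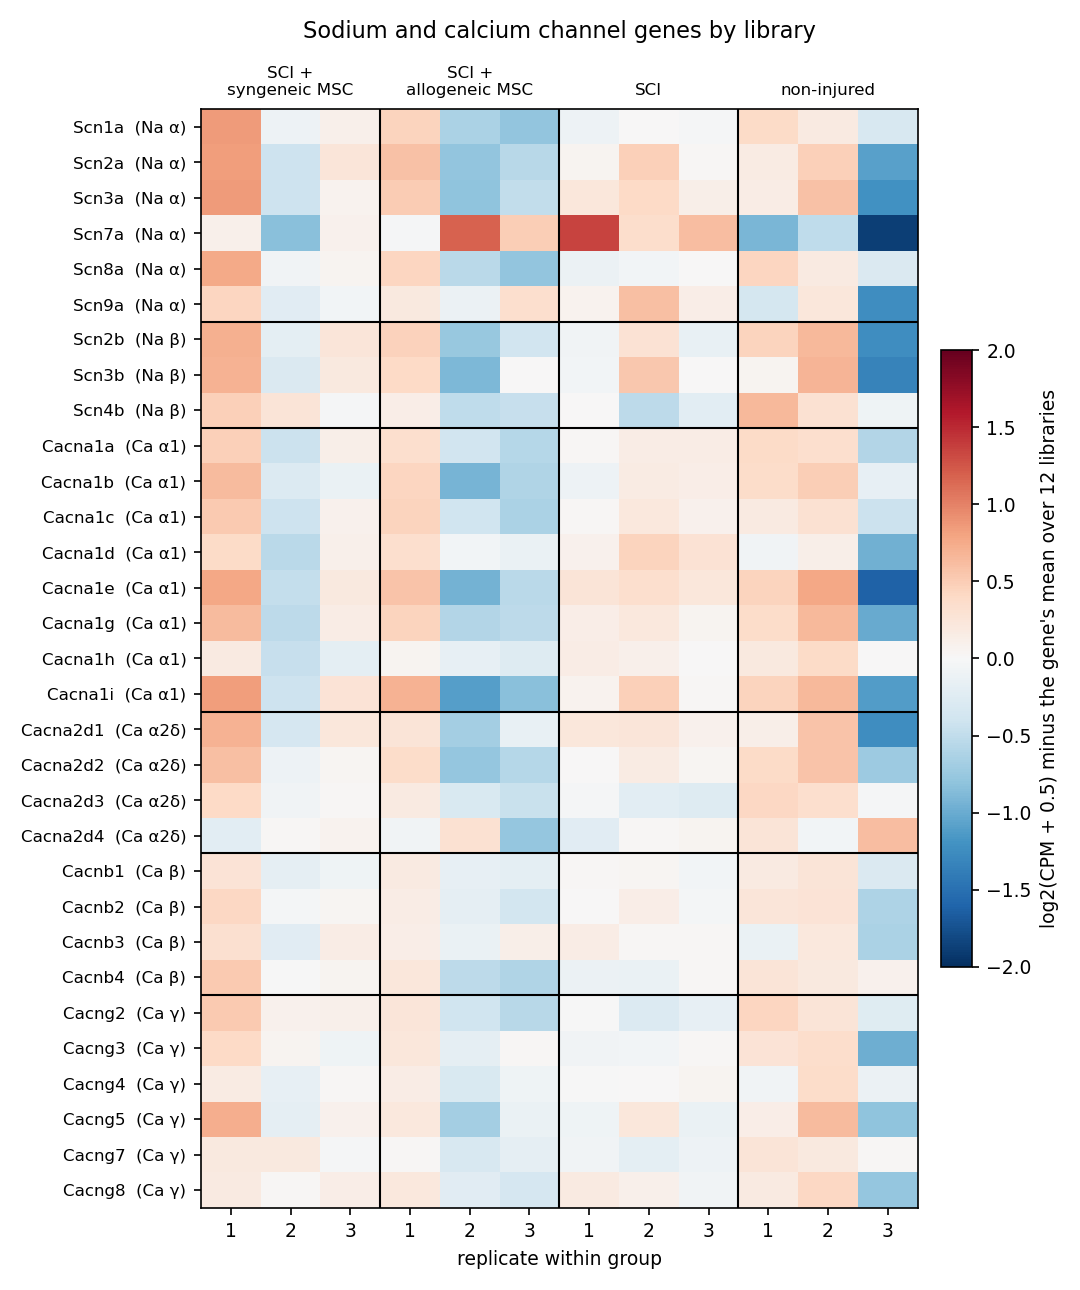
Each square shows the level of 1 channel gene in 1 library, as log2(CPM + 0.5) minus that gene's mean over all 12 libraries, with red for higher and blue for lower. Rows are the 31 genes tested, by subunit class, and columns are the 3 libraries of each group. The column of non-injured library 3 is blue for most genes, the columns of syngeneic and allogeneic library 1 are red, and Scn7a departs from the rest with its red squares in SCI and blue ones in non-injured cord.

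Summed transmitter markers moved with this pattern. Summed levels of 7 genes for GABA, glycine and glutamate synthesis or vesicle loading were 1378, 858 and 951 CPM in the syngeneic group, 1106, 536 and 648 CPM in the allogeneic group, 849, 911 and 865 CPM in SCI, and 1222, 1090.4 and 488 CPM in non-injured cord. Per 100 CPM of these markers, the members held 236 to 242 CPM in the syngeneic libraries, 237 to 284 CPM in the allogeneic libraries, 234 to 254 CPM in SCI and 231, 249.7 and 348 CPM in non-injured cord. The sum of the 12 general neuron markers did not share this pattern in the non-injured, syngeneic or SCI groups. That sum was 17086 CPM in non-injured library 3, the highest of all libraries, beside 16285 and 15351 CPM in the other non-injured libraries. In the syngeneic group it was 13786, 14787 and 11231 CPM, highest in library 2, where 27 of 31 members were lowest. In SCI it was 10973, 9009 and 9392 CPM, lowest in library 2, where 18 of 31 members were highest. In the allogeneic group it was highest in library 1, as for most members, with 11208, 10244 and 9375 CPM. Single neuron markers may differ from their sum and are not given by library. Non-injured library 3 also had the highest oligodendrocyte marker sum, 77244 CPM against 39961 and 31672 CPM, and the highest motor neuron marker sum, 640.2 CPM against 383 and 463 CPM. Within its group it had the highest sum for Schwann cells (1690.4 CPM against 149.6 and 1008) and skeletal muscle (12.3 against 3.05 and 3.56). The same held for astrocytes (4086 against 2779 and 2546) and smooth muscle and pericytes (433 against 218 and 235). Endothelial, fibroblast, and microglia and macrophage sums were highest there as well. Its sums for oligodendrocyte precursors and dorsal root ganglion neurons lay between those of its fellows. The part of such differences between libraries in the results that follow was not tested, beyond leaving each library out in turn.

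**Figure D2:**
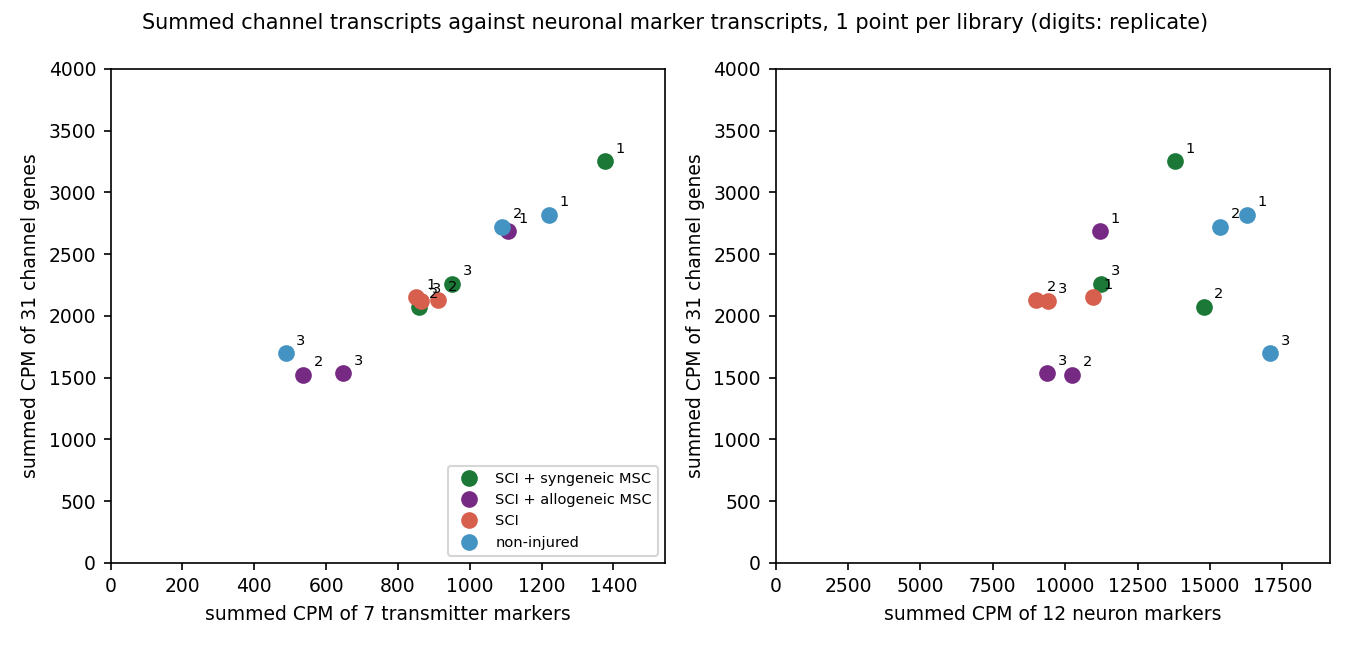
The summed level of the 31 channel genes (CPM, vertical axis) is plotted against summed marker levels (CPM, horizontal axis), with 1 point per library coloured by group and numbered by replicate. On the left, against 7 transmitter markers, libraries with little of one have little of the other. On the right, against 12 neuron markers, non-injured library 3 has the highest marker sum, 17086 CPM, with 1699 CPM of channel transcripts.

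Members differed in how far they dropped in non-injured library 3. Its level divided by the mean of the other two non-injured libraries had a median of 0.518 over the 31 members. The ratio was 0.903 for Cacnb4, 0.865 for Cacng7, 0.821 for Cacng4 and 0.819 for Cacna1h, the highest ratios below 1. It was 0.207 for Cacna1e, 0.286 for Scn2b and Scn3b, 0.305 for Cacna1i, 0.314 for Scn3a and 0.325 for Cacna2d1, the genes lowest there. Of the 31, only Cacna2d4 was higher there, with a ratio of 1.47.

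Of the genes described, 1 was called after injury. Against non-injured cord, SCI cord had 1 of the 31 members called, Scn7a, which was higher, or 3.23%. Of all genes tested, 25.8% were called in this comparison in either direction and 16.6% higher. The median log2 fold change of the members was −0.03, beside 0.0082 over all genes, and their range was −0.54 to 1.97. The sign of that median rested on single libraries, with −0.06 without SCI library 2 and 0.11, 0.19 and −0.27 without non-injured library 1, 2 and 3, and it was 0.00 with library totals as the only scaling and 0.07 with limma-voom. Libraries of the 2 groups did not overlap for 3 of these members, 9.68%, beside 47.5% of all genes (26.3% higher and 21.2% lower): Scn7a was higher in every SCI library, and Cacnb4 and Cacng7 were lower in every one. At an unadjusted p below 0.05 stood 4 members, beside 38.4% of all genes, which were Scn7a, Cacng7, Scn4b and Cacna2d3. The count of called members was 2 without non-injured library 2, with Scn9a added, or 6.25% of the 32 members that passed the filter there, beside 19.7% of all genes in that fit. It was 4 without non-injured library 3, or 12.5% of 32 members beside 23.8% of all genes, where Scn4b, Cacna2d3 and Cacng7 were called lower beside Scn7a. In the same libraries 8 of 12 neuron markers were called lower and none higher, with a median of −0.58, as were 5 of 7 motor neuron markers, with a median of −0.89. None of 4 inhibitory neuron markers was called, and their median was −0.04. Called higher were 1 of 3 excitatory neuron markers, 6 of 6 astrocyte, 7 of 7 microglia and macrophage, 4 of 5 oligodendrocyte precursor and 6 of 6 fibroblast markers, 1 of 3 tested dorsal root ganglion markers and 1 of 5 tested skeletal muscle markers, and 4 of 6 oligodendrocyte markers were called lower. None of 6 smooth muscle and pericyte, 5 endothelial or 4 Schwann cell markers was called. The difference between these lists and the channel genes was not tested.

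**Figure D3:**
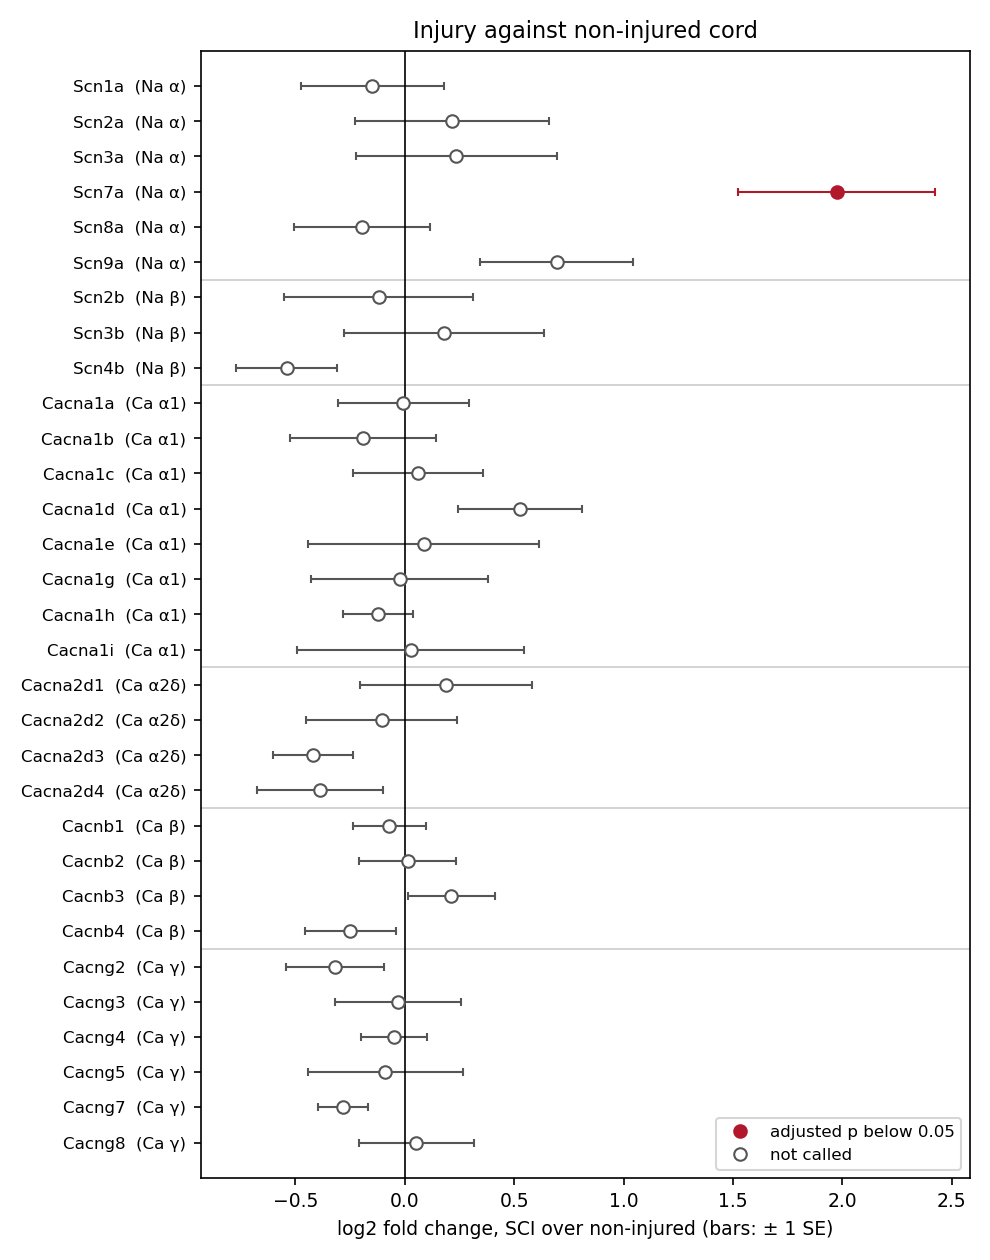
The log2 fold change of SCI over non-injured cord is shown for 31 channel genes tested, grouped by subunit class, with bars of 1 SE on each side. Filled red points have an adjusted p below 0.05. Scn7a at 1.97 is the called gene among them, and most others lie within 1 or 2 SE of 0.

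Scn7a encodes Nax, an atypical alpha subunit that is gated by extracellular sodium rather than voltage and is known from glia, Schwann cells and other non-neuronal cells. Scn7a had 8.61, 4.25 and 8.48 CPM in the syngeneic libraries, 7.85, 18.7 and 11.4 CPM in the allogeneic ones, 21, 10.3 and 12.5 CPM in SCI and 3.98, 5.43 and 1.79 CPM in non-injured cord. All SCI and allogeneic libraries lay above all non-injured ones, and the syngeneic libraries overlapped non-injured cord. The gene rose in SCI cord with 1.97 (SE 0.449, adjusted p 0.00875, edgeR), and this call stood in all 13 alternatives, with fold changes of 1.62 to 2.66. Per length, it made up 1.64 ± 0.505% of the RNA of the 9 alpha subunits described in the syngeneic group, 4.8 ± 3% in the allogeneic group, 4.08 ± 1.7% in SCI and 0.953 ± 0.33% in non-injured cord (SD, n = 3). Fibroblast markers moved in the same comparison. Their sum over 6 genes was 149, 206 and 962 CPM in the syngeneic group, 406, 1465 and 1251 CPM in the allogeneic group, 1552, 1143 and 1014 CPM in SCI and 79.9, 194 and 197 CPM in non-injured cord, and 6 of 6 were called higher in SCI. Allogeneic library 1 and syngeneic library 2, low in these markers within their groups, also had the lowest Scn7a of their groups, whereas syngeneic library 1 had little of them and 8.61 CPM of Scn7a. For 4 Schwann cell markers the sums were 349, 593 and 898 CPM in the syngeneic group, 699, 1836 and 1259 CPM in the allogeneic group, 669, 767 and 732 CPM in SCI and 149.6, 1008 and 1690.4 CPM in non-injured cord, and 0 of 4 were called. Sums of 6 astrocyte markers were 6178, 5819 and 9034 CPM in the syngeneic group. In the allogeneic group they were 8726, 11346 and 8327 CPM, and in SCI 8794, 10106 and 10252 CPM. Non-injured cord had 2779, 2546 and 4086 CPM of them, and 6 of 6 were called higher in SCI. Also called higher in SCI were 7 of 7 microglia and macrophage markers. The part of these cells in the Scn7a value was not tested.

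**Figure D4:**
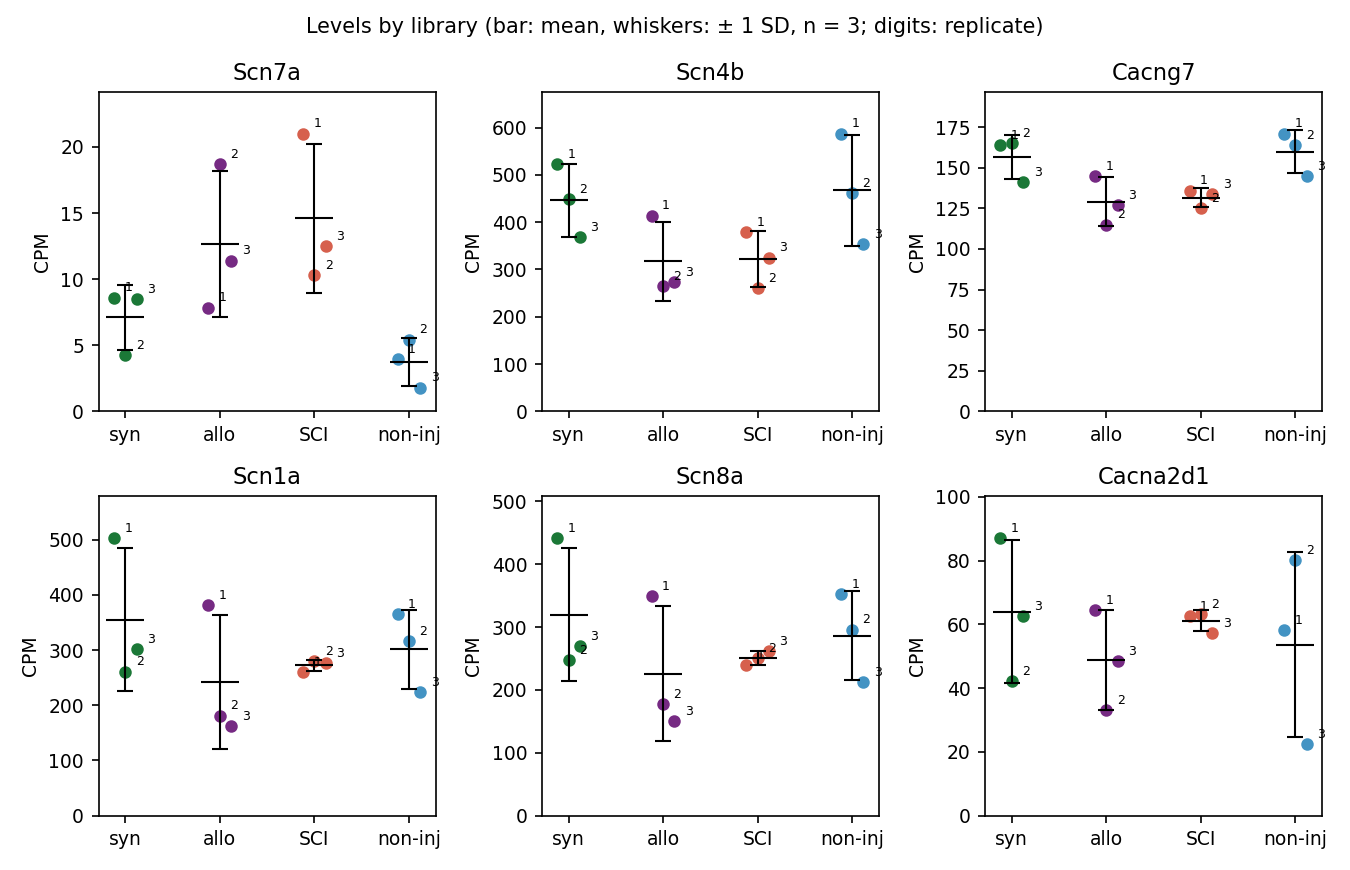
Levels in CPM are shown for 6 channel genes, 1 point per library numbered by replicate, with the group mean as a bar and 1 SD as whiskers (n = 3). Groups run from syngeneic and allogeneic MSC (syn, allo) to SCI and non-injured cord. Scn7a lies at 10.3 to 21 CPM in SCI above 1.79 to 5.43 CPM in non-injured cord, Cacng7 lies in SCI beneath all its non-injured points, Scn4b overlaps between these groups, and Scn1a, Scn8a and Cacna2d1 spread widely within every group except SCI.

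None of the neuronal alpha subunits was called after injury. Scn1a encodes Nav1.1, the main sodium channel of inhibitory interneurons. Scn1a had 503, 261 and 301 CPM in the syngeneic libraries, 381, 181 and 162 CPM in the allogeneic ones, 260, 279.9 and 276 CPM in SCI and 365, 316 and 224 CPM in non-injured cord. The SCI libraries fell within the range of the non-injured ones, and the fold change was −0.15 (SE 0.327, adjusted p 0.782, edgeR). Scn8a encodes Nav1.6, the channel of mature nodes of Ranvier. Scn8a had 442, 248 and 270.3 CPM in the syngeneic libraries, 349, 178 and 150.2 CPM in the allogeneic ones, 239.6, 251 and 262 CPM in SCI and 352, 296 and 212 CPM in non-injured cord. Here too SCI lay inside the non-injured range, and the fold change was −0.20 (SE 0.311, adjusted p 0.693, edgeR). Together these genes made up most of the alpha subunit RNA per length: Scn1a 52.6%, 49.5%, 49.5% and 52.7% on average in the syngeneic, allogeneic, SCI and non-injured groups, and Scn8a 33.8%, 32.9%, 32.3% and 35.4%. Scn2a, encoding Nav1.2 of unmyelinated axons and initial segments, was much lower. Scn2a had 95.6, 39.8 and 63 CPM in the syngeneic libraries, 80.5, 30.6 and 36.1 CPM in the allogeneic ones, 55.5, 74.7 and 54.3 CPM in SCI and 59.6, 74.4 and 25 CPM in non-injured cord. SCI and non-injured libraries overlapped, and the fold change was 0.22 (SE 0.442, adjusted p 0.766, edgeR).

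Scn3a encodes Nav1.3, an embryonic channel known in rat for its return after nerve and cord injury. Scn3a had 29.7, 12.1 and 17.2 CPM in the syngeneic libraries, 23.4, 9.14 and 11.5 CPM in the allogeneic ones, 19.2, 21.6 and 17.7 CPM in SCI and 18.2, 24.8 and 6.77 CPM in non-injured cord. The SCI libraries lay between the lowest and highest non-injured ones, and the fold change was 0.24 (SE 0.459, adjusted p 0.753, edgeR). Scn9a encodes Nav1.7, best known from pain-sensing neurons outside the cord. Scn9a had 7.82, 4.74 and 5.46 CPM in the syngeneic libraries, 6.55, 5.19 and 7.29 CPM in the allogeneic ones, 5.94, 8.84 and 6.29 CPM in SCI and 4.33, 6.68 and 2.1 CPM in non-injured cord. SCI and non-injured cord overlapped, since non-injured library 2 exceeded 2 SCI libraries, and the fold change was 0.69 (SE 0.349, adjusted p 0.168, edgeR). Without non-injured library 2, Scn9a was called higher, with 1.11 and an adjusted p of 0.0424 in edgeR's test. Scn7a, Scn9a, Scn1a, Scn2a and Scn3a share the chromosome 2 cluster, and only Scn7a of these was called.

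Of the beta subunits described, none was called. Scn4b was the most abundant of them. Scn4b had 522, 449 and 368 CPM in the syngeneic libraries, 414, 264 and 274 CPM in the allogeneic ones, 379, 261 and 325 CPM in SCI and 587, 462 and 353 CPM in non-injured cord. SCI library 1 lay above non-injured library 3, so the groups overlapped, and the fold change was −0.54 (SE 0.232, adjusted p 0.11, edgeR). Without non-injured library 3 it was called lower, with −0.72 and an adjusted p of 0.0379. Scn2b and Scn3b, which pair with alpha subunits at initial segments and nodes, had fold changes of −0.12 and 0.18 with SEs of 0.432 and 0.456.

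No calcium channel gene was called after injury. The alpha1 subunits of presynaptic channels are Cacna1a (P/Q-type), Cacna1b (N-type, the target of the intrathecal painkiller ziconotide) and Cacna1e (R-type). Cacna1a had 119, 63.8 and 93 CPM in the syngeneic libraries, 109, 65.4 and 57.7 CPM in the allogeneic ones, 87.1, 95.2 and 94.9 CPM in SCI and 112, 109 and 57.3 CPM in non-injured cord. Its SCI libraries lay inside the non-injured range. Cacna1b had 70.1, 37.3 and 40.9 CPM in the syngeneic libraries, 60.7, 23.4 and 29.4 CPM in the allogeneic ones, 41.9, 50.6 and 49.7 CPM in SCI and 58.6, 63.4 and 40.1 CPM in non-injured cord. Cacna1e had 96.7, 40.7 and 65.1 CPM in the syngeneic libraries, 84.1, 29.3 and 38.7 CPM in the allogeneic ones, 67.5, 71.3 and 66.2 CPM in SCI and 77.7, 97.4 and 18.2 CPM in non-injured cord. Cacna1e had the widest non-injured spread of the tested alpha1 subunits, set by library 3. The fold changes of the 3 genes were −0.01, −0.19 and 0.09, with SEs of 0.299, 0.333 and 0.529.

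L-type alpha1 subunits couple depolarisation to gene expression and, in motor neurons, to persistent inward current. Cacna1c had 53.9, 27.8 and 39.7 CPM in the syngeneic libraries, 51.1, 28.2 and 23.8 CPM in the allogeneic ones, 38.1, 43.2 and 39.8 CPM in SCI and 42.2, 46.3 and 27.7 CPM in non-injured cord. For Cacna1c the SCI libraries lay inside the non-injured range, and the fold change was 0.06 (SE 0.298, adjusted p 0.909, edgeR). Cacna1d had 33.8, 17.5 and 27.6 CPM in the syngeneic libraries, 32.7, 24.6 and 23.4 CPM in the allogeneic ones, 27.4, 35.1 and 31.4 CPM in SCI and 24.4, 27.9 and 12.9 CPM in non-injured cord. For Cacna1d, non-injured library 2 slightly exceeded SCI library 1, so the groups overlapped, and the fold change was 0.53 (SE 0.284, adjusted p 0.198, edgeR). Its share of alpha1 RNA per length was 6.97 ± 0.505% in the syngeneic group, 9.02 ± 1.75% in the allogeneic group, 8.13 ± 0.526% in SCI and 5.67 ± 0.109% in non-injured cord (SD, n = 3), and the SCI shares of 7.54% to 8.55% all exceeded the non-injured shares of 5.56% to 5.78%. This share was picked after its values were seen and was given no test. T-type subunits open near the resting potential and support burst firing. Cacna1g had 62.7, 28.1 and 44.6 CPM in the syngeneic libraries, 54.9, 26.7 and 28 CPM in the allogeneic ones, 44.5, 47 and 42 CPM in SCI and 52.3, 63.5 and 19.9 CPM in non-injured cord. Cacna1h had 28.7, 18.3 and 22 CPM in the syngeneic libraries, 26.2, 22.5 and 21.1 CPM in the allogeneic ones, 27.9, 27.2 and 25.3 CPM in SCI and 29, 33.1 and 25.4 CPM in non-injured cord. Both overlapped between SCI and non-injured cord, with fold changes of −0.02 and −0.12 and SEs of 0.405 and 0.16, and the remaining T-type gene, Cacna1i, had a fold change of 0.03 with an SE of 0.518.

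The alpha2delta subunits carry channels to terminals, and Cacna2d1 and Cacna2d2 encode the binding sites of gabapentin and pregabalin. Cacna2d1 had 87.1, 42.3 and 62.6 CPM in the syngeneic libraries, 64.5, 33.2 and 48.4 CPM in the allogeneic ones, 62.6, 63.3 and 57.3 CPM in SCI and 58.3, 80.1 and 22.5 CPM in non-injured cord. Cacna2d2 had 92.6, 56.6 and 62.4 CPM in the syngeneic libraries, 78.7, 35.5 and 40.9 CPM in the allogeneic ones, 60.9, 68.3 and 62.7 CPM in SCI and 79.2, 90.7 and 36.5 CPM in non-injured cord. SCI libraries were tightly grouped within the wide non-injured range for both, with fold changes of 0.19 and −0.10 and SEs of 0.392 and 0.345. Cacna2d3, another member of the class, was lower on average. Cacna2d3 had 94.2, 67.7 and 72.6 CPM in the syngeneic libraries, 80.5, 57.7 and 52.3 CPM in the allogeneic ones, 70.2, 61.4 and 59.8 CPM in SCI and 95.4, 90.7 and 69.9 CPM in non-injured cord. SCI library 1 slightly exceeded non-injured library 3, so the groups overlapped, and the fold change was −0.42 (SE 0.183, adjusted p 0.113, edgeR). Without non-injured library 3 it was called lower, with −0.56 and an adjusted p of 0.0417. Cacna2d4, known from photoreceptors, had 2.03 to 6.15 CPM in the 12 libraries.

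Calcium channel beta subunits mask the retention of the alpha1 pore inside the cell. Cacnb4, mutated in the lethargic mouse with ataxia and seizures, held 53.1%, 46.2%, 49.1% and 54.6% of the beta subunit RNA per length in the syngeneic, allogeneic, SCI and non-injured groups. Cacnb4 had 209, 144 and 151 CPM in the syngeneic libraries, 170.5, 101 and 95.2 CPM in the allogeneic ones, 134, 133 and 148 CPM in SCI and 173, 167 and 154 CPM in non-injured cord. Every SCI library was below every non-injured one, but the test did not call it, with −0.25 (SE 0.208, adjusted p 0.421, edgeR), and 0.49, called higher (adjusted p 0.0459), with scaling to the 12 neuron markers. That scaling, added after the data were seen, moved the median of all genes to 0.746, so Cacnb4 still lay below that median. Cacnb3 had 27.8, 19 and 24.7 CPM in the syngeneic libraries, 24.5, 20.2 and 24.2 CPM in the allogeneic ones, 24.6, 22.7 and 22.5 CPM in SCI and 20.3, 25.9 and 14.1 CPM in non-injured cord. Cacnb3 overlapped between the groups, with 0.21 (SE 0.199, adjusted p 0.478, edgeR). Cacnb1, which partners the muscle channel and also occurs in neurons, and Cacnb2, a partner of the heart channel, had fold changes of −0.07 and 0.01, with SEs of 0.167 and 0.22.

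Among gamma subunits, Cacng2 encodes stargazin, which carries AMPA receptors to synapses. Cacng2 had 128, 94.2 and 96 CPM in the syngeneic libraries, 105, 67.5 and 60.4 CPM in the allogeneic ones, 88.9, 73.6 and 79.4 CPM in SCI and 120, 106 and 74.9 CPM in non-injured cord. SCI libraries 1 and 3 exceeded the lowest non-injured library, and the fold change was −0.32 (SE 0.224, adjusted p 0.331, edgeR). Cacng4, of the same kind and known also from glial precursors, was the steadiest member in SCI. Cacng4 had 37.5, 29.9 and 34 CPM in the syngeneic libraries, 37.3, 27.2 and 31.6 CPM in the allogeneic ones, 33.3, 33.9 and 34.9 CPM in SCI and 31.8, 43.2 and 30.8 CPM in non-injured cord. For Cacng4 the SCI libraries lay inside the non-injured range, and the fold change was −0.05 (SE 0.15, adjusted p 0.849, edgeR). Cacng5 and Cacng7 belong to another class of AMPA receptor partners. Cacng5 had 20.8, 10.9 and 13.1 CPM in the syngeneic libraries, 14.3, 7.56 and 11.2 CPM in the allogeneic ones, 11.6, 14.6 and 11.2 CPM in SCI and 13.6, 19.4 and 6.82 CPM in non-injured cord. Its groups overlapped, with −0.09 (SE 0.354, adjusted p 0.887, edgeR). Cacng7 is given in full because its libraries did not overlap, a choice made after its values were seen. Cacng7 had 164, 165 and 141 CPM in the syngeneic libraries, 145, 115 and 127 CPM in the allogeneic ones, 136, 125 and 134 CPM in SCI and 171, 164 and 145 CPM in non-injured cord. Its fold change was −0.28 (SE 0.114, adjusted p 0.0916, edgeR), or 0.45, called higher, under neuron-marker scaling (adjusted p 0.0146), and otherwise it was called lower by DESeq2 (−0.31, adjusted p 0.0375) and by edgeR without non-injured library 3 (−0.36, adjusted p 0.0372). Cacng3 and Cacng8, also AMPA receptor partners, had fold changes of −0.03 and 0.05.

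The 7 members under the filter are mostly channels of muscle, retina and peripheral sensory neurons. Counts per library were 1 to 5 for Scn4a (the skeletal muscle sodium channel), 0 to 1 for Scn10a and 0 to 5 for Scn11a (channels of pain-sensing neurons), 0 to 4 for Cacna1f (the retinal L-type channel), 0 to 9 for Cacna1s (the skeletal muscle L-type channel), 0 to 5 for Cacng1 and 1 to 5 for Cacng6 (muscle gamma subunits). Over 12 libraries they summed to 33, 3, 22, 23, 55, 12 and 36 counts in that order. Cacna1s had 13 counts in the syngeneic group, 22 in the allogeneic group, 15 in SCI and 5 in non-injured cord. The other 6 had at most a few reads in any library.

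Ratios within a library do not depend on how libraries are scaled, and 4 pairs were compared: Scn3a to Scn1a, Scn2a to Scn8a, Cacna2d1 to Cacna2d2 and Cacnb3 to Cacnb4, each as a log2 ratio of counts per exon length. With 3 libraries against 3, an exact two-sided permutation test cannot give a p below 0.1. The ratio of Cacna2d1 to Cacna2d2 was −0.60, −0.75 and −0.77 in SCI against −1.09, −0.82 and −1.34 in non-injured cord. Each SCI library was above each non-injured one, the means differed by 0.38, and the exact permutation p was 0.1. Scn3a to Scn1a was −4.24, −4.59 and −4.29 in the syngeneic group against −3.92, −3.86 and −4.13 in SCI. All syngeneic libraries were below all SCI ones, by 0.41 on average, with an exact permutation p of 0.1. In the other 14 of 16 tests the libraries overlapped, and the smallest of the 16 adjusted p-values was 0.533. SCI ratios exceeded non-injured ones on average for all 4 pairs, by 0.38 to 0.54. Non-injured library 3 had the lowest ratio of all 12 libraries in each pair, at −5.206, −2.78, −1.345 and −2.286 in the order listed. Without that library the differences were 0.191, 0.237, 0.245 and 0.318 in the same order.

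**Figure D5:**
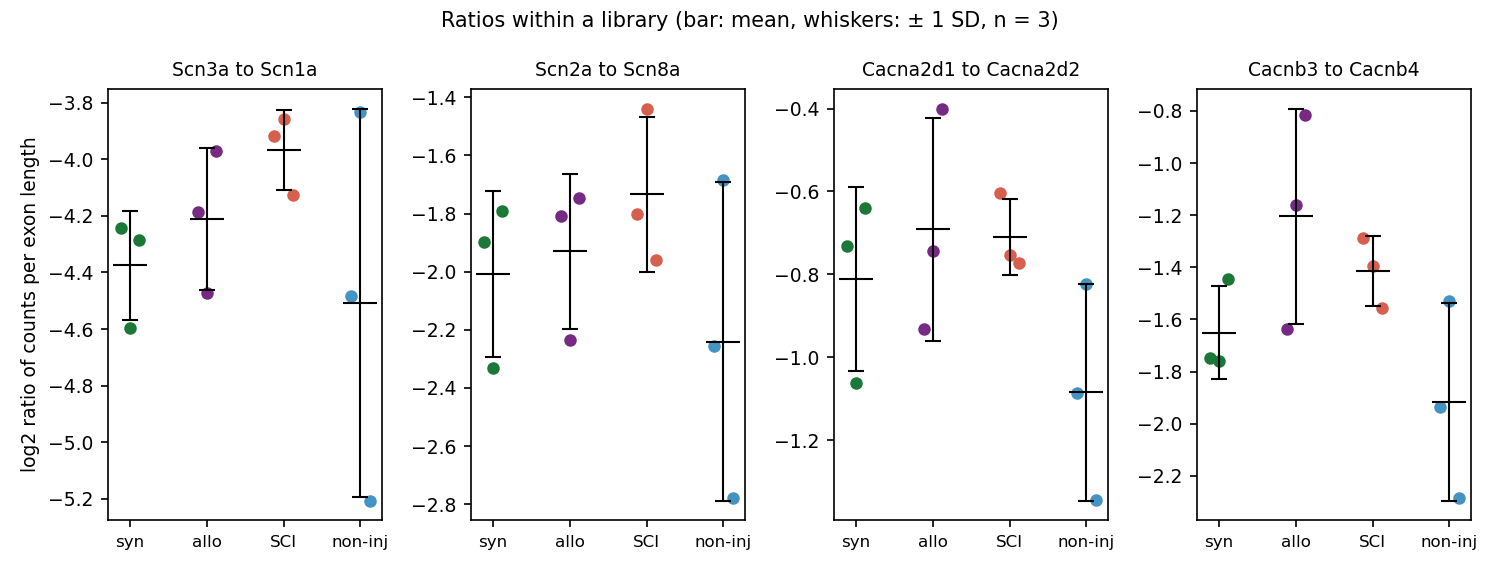
The log2 ratio of counts per exon length within a library is plotted for 4 pairs of channel genes, 1 point per library, with group means as bars and 1 SD as whiskers (n = 3). Groups run from syngeneic and allogeneic MSC to SCI and non-injured cord. For Cacna2d1 to Cacna2d2 the SCI points of −0.77 to −0.60 lie above the non-injured points of −1.34 to −0.82.

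Partners of the channels were read from lists chosen with earlier results of these data known, each beside the 25.8% of all genes called after injury. Of 13 sodium channel partners at the initial segment and node, 0 were called higher and 1 lower. This was Fgf11, a fibroblast growth factor homologous factor that binds sodium channel tails, with 42.8 ± 5.83 CPM in SCI and 73.8 ± 5.32 CPM in non-injured cord (SD, n = 3) and a log2 fold change of −0.79 (SE 0.141, adjusted p 0.00238, edgeR). Of 15 tested calcium channel partners, 1 was called higher and 3 lower. Rrad, a small GTPase that inhibits calcium channels, had 2.69 ± 0.311 CPM in SCI and 0.938 ± 0.0876 CPM in non-injured cord and rose by 1.52 (SE 0.291, adjusted p 0.00343). Cabp1, a calmodulin-like regulator of channel inactivation, had 54.2 ± 7.16 CPM in SCI and 88.7 ± 4.49 CPM in non-injured cord, with −0.71 (SE 0.145, adjusted p 0.0048). The other called genes were Calm2 and Rem2, both lower. None of the 4 genes of the sodium leak channel complex was called. Of 11 genes of calcium release and store entry, 2 were called higher and 0 lower: Itpr2, an inositol trisphosphate receptor abundant in astrocytes, with 0.97 (SE 0.183, adjusted p 0.00322), and Orai3, a store-operated pore subunit, with 0.72 (SE 0.161, adjusted p 0.00836).

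No channel gene was called between either transplant group and injury alone. With syngeneic MSC against SCI, 0 of 31 members were called, beside 0.0363% of all genes, and DESeq2 and limma-voom also called 0. At an unadjusted p below 0.05 stood Cacng7 and Scn7a, 2 members, by edgeR, beside 13.5% of all genes, with 3 members by DESeq2 and 1 by limma-voom. The median log2 fold change was 0.07, beside 0.0041 over all genes, with 24 members above 0 and 7 below. The median was −0.12 without syngeneic library 1, 0.24 without syngeneic library 2, 0.10 without SCI library 2 and −0.01 without SCI library 3, so its direction rested on single libraries. Libraries did not overlap for 3 members, 9.68% beside 23.7% of all genes (12.2% higher and 11.5% lower): Cacng2 and Cacng7 were higher in every syngeneic library and Scn7a was lower. Scn7a had −1.04 (SE 0.43, adjusted p 0.34, edgeR). Cacng7 and Cacng2 had fold changes of 0.25 and 0.40, with SEs of 0.114 and 0.224. This comparison shares its SCI libraries with that of SCI and non-injured cord, so the fold changes of the 2 are not independent.

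With allogeneic MSC against SCI, 0 of 31 members were called by edgeR, DESeq2 or limma-voom, beside 0.188% of all genes, and 0 had an unadjusted p below 0.05 by any of these tools, beside 2.94% of all genes by edgeR. The median was −0.17, beside 0.0014 over all genes, with 1 member above 0 and 30 below, and all 8 tested alpha1 calcium channel subunits were below 0, at −0.43 to −0.21. Without allogeneic library 1, 2 or 3 the median over members was −0.39, −0.08 and −0.06 in that order. For 0 members did the libraries fail to overlap, beside 7.49% of all genes, since allogeneic library 1 lay above the SCI libraries for many genes and libraries 2 and 3 below. Scn1a showed this split, with 381 CPM in allogeneic library 1 and 181 and 162 CPM in libraries 2 and 3, around 260 to 279.9 CPM in SCI.

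Syngeneic against allogeneic MSC gave 0 called members of 31, beside 0.611% of all genes, by edgeR, DESeq2 or limma-voom. At an unadjusted p below 0.05 stood 1 member by edgeR (Cacng7), beside 14.4% of all genes, and 3 each by DESeq2 and limma-voom. The median fold change was 0.30, beside 0.017 over all genes, and 27 members were above 0 and 4 below. That median was 0.06 without syngeneic library 1, 0.47 without syngeneic library 2, and 0.64, 0.18 and 0.17 without allogeneic library 1, 2 and 3. The ends of the range were Scn1a with 0.56 (SE 0.328, adjusted p 0.456) and Scn7a with −0.82 (SE 0.434, adjusted p 0.408, edgeR). The libraries overlapped for all 31, beside 12.2% of all genes without overlap. The summed level of the 7 transmitter markers lay in the same direction. Its mean was 1062 ± 277 CPM in the syngeneic group and 763 ± 302 CPM in the allogeneic group (SD, n = 3). Single markers differed, with a median log2 fold change of 0.478 for the 4 inhibitory markers and −0.133 for the 3 excitatory ones. The 12 general neuron markers had a median of 0.35 (0.222 to 0.518) and 7 motor neuron markers 0.294 (0.073 to 0.599), none called. Against SCI, the neuron marker median was 0.409 for syngeneic and 0.071 for allogeneic MSC, beside member medians of 0.067 and −0.174. The part of the transmitter and neuron markers in the members' values was not tested.

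Both transplant groups were also set against non-injured cord. Syngeneic MSC gave 0 of 31 called by edgeR, DESeq2 or limma-voom, beside 5.34% of all genes, with 0, 2 and 1 members at an unadjusted p below 0.05 in that order of tools, beside 19.3% of all genes by edgeR, and none of the 31 without overlap, beside 20.9% of all genes. Scn7a stood at 0.93 (SE 0.448, adjusted p 0.286, edgeR) there. Allogeneic MSC gave 1 called member, Scn7a, beside 24.9% of all genes in either direction and 16.7% higher, with 1.75 (SE 0.452, adjusted p 0.0156, edgeR). At an unadjusted p below 0.05 stood 4 members, beside 37.4% of all genes. Its libraries were all above the non-injured ones, and those of Cacng7 all below, together 6.45% of members beside 37% of all genes (21.1% higher and 15.9% lower). Without allogeneic library 2, which had 18.7 CPM of Scn7a, the gene was no longer called (1.38, adjusted p 0.067). Without allogeneic library 1, 9 members were called, Scn7a higher and Cacna1b, Cacna2d3, Cacnb4, Cacng2, Cacng7, Scn1a, Scn4b and Scn8a lower, with fold changes of −1.03 to −0.41 for the lower ones. These 9 are 29% of the 31, beside 27.7% of all genes in that fit. Without allogeneic library 3, Scn7a and Cacna1s were called higher, 6.25% of the 32 members that passed the filter there, beside 18.2% of all genes. Without non-injured library 3, 5 were called, 15.6% of 32 members beside 26.1% of all genes, Scn7a and Cacna1s higher and Cacna2d3, Cacng7 and Scn4b lower. Cacna1s passed the filter in these fits but not in the main one. Its calls rest on few reads, with 9, 8 and 5 counts in the allogeneic libraries and 2, 0 and 3 in the non-injured ones.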

How the data were processed

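Spinal cord RNA was extracted with RNeasy columns after dissociation in lysis buffer and DNase I treatment, and libraries were made with a stranded polyA TruSeq kit, per the labels' protocols. The authors deposited raw read counts per gene. Per the submitters' processing notes, the build was GRCm38, and the tools named include the aligner STAR 2.5.1, the read counter featureCounts 1.5.1, Trim Galore 0.4.1 for trimming, FastQC 0.11.5, Picard, and StringTie 1.3.3. The sources used here do not state the strand setting or annotation release of the counting.

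From all columns of counts, genes were filtered with filterByExpr (minimum count 10, minimum total 15), which left 16527 genes. One model with the 4 groups and no covariates was fitted to all of them in edgeR 4.0.16 (R 4.3.3, TMM scaling, quasi-likelihood test, 8 residual degrees of freedom), and Benjamini-Hochberg adjustment ran over all genes tested. DESeq2 1.42.0, voom of limma 3.58.1, library totals, no filter, a fit of only 2 groups and leaving out each library in turn were alternatives. Scaling to 12 neuron markers or to 7 transmitter markers was added after the data were seen. Ratios of genes were tested by exact permutation over 20 regroupings. Fits were tested on simulated data. Promoter windows came from RefSeq and gene spans from GENCODE M21.

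The members, marker lists and partner lists were chosen with earlier results of these data known. Genes given in every library are the members called in a main comparison and others listed by role, and of each partner list the 2 called genes with the smallest p are described. Cacng7 and the share of Cacna1d were chosen after their values were seen. Some members and 1 partner gene are not reported here, whatever their values. They stayed in the fit and its adjustment, and all counts, medians, sums and shares of the members leave them out.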

Additional observations from a re-analysis of the deposited data

How the results depend on the processing

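Scn7a was called higher in SCI than in non-injured cord under all 13 alternatives, and none of the 31 members was called in the comparisons of syngeneic MSC with SCI, allogeneic MSC with SCI, syngeneic with allogeneic MSC or syngeneic MSC with non-injured cord when any 1 library was left out (0 to 0 members each). Between SCI and non-injured cord the 1 called member became 2 with DESeq2 (Cacng7 added), 6.45% beside 29.4% of all genes, and 12, all higher, with scaling to neuron markers, 38.7% beside 70% of all genes. Leaving out 1 library gave 1 to 4 members there, beside 14% to 23.8% of all genes. Between allogeneic MSC and non-injured cord the 1 called member became 2 with DESeq2 (Cacng7 added), beside 28.1% of all genes, 2 with no filter (Cacna1s added), beside 13.4%, and 6 with neuron-marker scaling, 19.4% beside 62.7%. Leaving out 1 library gave 0 to 9 there, beside 15.5% to 27.7% of all genes. The cause of these changes was not tested. Scaling to neuron markers moved the median of all genes to 0.746 for SCI and 0.654 for allogeneic MSC over non-injured cord, and scaling to transmitter markers moved it to −0.109 and 0.173. Under neuron-marker scaling, SCI over non-injured cord turned to 0.61 for Cacna1h, 0.49 for Cacnb4, 0.68 for Cacng4 and 0.45 for Cacng7, and allogeneic MSC over non-injured cord turned to 0.515 for Cacng4. Of 136 uncalled fold changes of named members, 70 changed sign in at least 1 of the 11 alternatives other than marker scaling. The count was 112 with the marker scalings included. Those scalings did not shift all genes alike. For SCI over non-injured cord, transmitter-marker scaling moved the median of members from −0.032 to 0.041. It moved the median of all genes from 0.008 to −0.109.

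Leaving out 1 library moved the log2 ratios as follows, for SCI less non-injured cord, syngeneic MSC less SCI, allogeneic MSC less SCI and syngeneic less allogeneic MSC in that order. Scn3a to Scn1a ranged over 0.191 to 0.877, −0.487 to −0.298, −0.362 to −0.112 and −0.296 to −0.046. Scn2a to Scn8a ranged over 0.237 to 0.784, −0.387 to −0.112, −0.309 to −0.043 and −0.23 to 0.085. Cacna2d1 to Cacna2d2 ranged over 0.245 to 0.505, −0.187 to 0.024, −0.128 to 0.138 and −0.24 to 0.026. Cacnb3 to Cacnb4 ranged over 0.318 to 0.696, −0.34 to −0.174, 0.015 to 0.427 and −0.664 to −0.252. A pseudocount of 0.5 counts changed no direction. No paired analysis was possible because the labels give the groups no shared replicate numbers. The SE of the tested members between SCI and non-injured cord ran from 0.114 to 0.529, and 7 members were too low to test.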
